A study of Homo sapiens with 12 samples.

Results

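The genes described here are 35 regulators of the cell cycle: the cyclins and cyclin-dependent kinases (CDKs), the enzymes that switch these kinases on and off, and the E2F and retinoblastoma (RB) family factors that turn on the genes for DNA replication and mitosis. They were taken by gene symbol from a table of 19973 genes, and all 35 symbols were found. RNA was sequenced from 2 human non-small cell lung cancer (NSCLC) lines, H460 and A549, with a genotype given as WT. The paper states that both lines carry homozygous mutations that inactivate KEAP1, so WT does not mean free of mutations. Cells were either non-treated (control) or treated with isovalerylspiramycin I (ISP-I), a macrolide isolated from the antibiotic mixture carrimycin, at 10 µM for 48 h. Each of the 4 groups had 3 libraries, 12 in all, and no source says whether the control cells received the solvent of ISP-I. The methods speak of independent experiments for the work in general but do not say this of the RNA libraries, so the p-values measure the spread between these libraries, which may be technical. Each group holds a single established cell line, so a difference between H460 and A549 is one between these lines.

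A cell passes from G1 into S phase when D cyclins with CDK4 or CDK6, and then E cyclins with CDK2, phosphorylate RB1 and its relatives RBL1 and RBL2. This frees the activator E2F factors E2F1, E2F2 and E2F3, which switch on the replication genes, the E and A cyclins and the repressors E2F7 and E2F8. In G2, MYBL2 and then FOXM1 bind the MuvB complex, to which LIN9 and LIN54 belong, and switch on mitotic genes such as the B cyclins and CDK1. In resting cells the same MuvB core joins RBL1 or RBL2 with E2F4 or E2F5 in the DREAM complex, which holds these genes silent. The members were therefore read in 3 groups, 10 of G1, 12 of G1/S and S phase and 13 of G2 and M phase.

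The values are FPKM, that is reads divided by the listed length of the gene and by the depth of the library. Levels set side by side between genes, and shares of a sum over genes, thus rest on the listed lengths. These were 616 bases for CKS2 and 17377 for SKP2, and whether they match the transcripts present was not tested. The summed FPKM of a library ran from 228594 to 273625. The libraries held 14225849 to 17874422 reads on genes. A gene was called lower or higher at a fold change over 2 on the log2(FPKM + 1) scale with an adjusted p under 0.05 (limma, adjusted by Benjamini-Hochberg over all genes tested), and every log2 fold change below is on that scale, which draws changes of genes near or under 1 FPKM toward 0. Over all genes tested, the median change was -0.15 (log2) in H460 and 0.02 in A549. Median-of-ratios scaling, which sets the typical gene to no change, moved the H460 median to 0.02 and the share of higher genes among called genes in H460 from 40.8% to 57.2%. The H460 ISP-I library 3 stood apart, since genes shorter than 1500 bases lay at a median of 0.81 (log2) above the other ISP-I libraries of H460 and genes longer than 6000 bases at -0.27. The H460 ISP-I library 2 lay at -0.59 for short genes, and A549 control library 3 at 0.36. Of the epithelial markers, KRT8 and KRT18 were high in both lines (194 and 70.3 FPKM in H460 controls, 649.9 and 331 in A549 controls), EPCAM and CDH1 were near 0 in H460 and low in A549, and markers of lung alveolar identity, leukocytes and endothelium were near 0 in the controls of both lines. Of the 13 markers, 4 were tested in H460, where the stromal marker PDGFRB was called higher (0.543 FPKM in controls and 2.40 after ISP-I) and KRT18 was higher under 2-fold (0.90). In A549, 6 were tested and CDH1 was called lower (4.90 and 0.756 FPKM), while KRT8 changed by -0.99 and VWF had 0.00218 and 0.303 FPKM. The part of these markers in the results was not tested.

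In H460, 18 of the 35 members were called lower after ISP-I and 0 higher, against 15.2% of all genes tested called lower and 10.5% called higher. In A549, 10 of 34 tested members were called lower and 0 higher, against 3.51% and 4.20% of all genes. At any fold, 22 members were lower and 3 higher past the adjusted p in H460, where 41.5% and 27.6% of all genes were, and 22 were lower and 2 higher in A549, where 27% and 30.5% of all genes were. The members higher at any fold were CCND2, CDK6 and E2F3 in H460 and CCND1 and CDK6 in A549. The number higher in H460 was 6 under median-of-ratios scaling and in voom, where CCND1 (0.37 and 0.39), E2F4 (0.50 and 0.52) and LIN54 (0.66 and 0.84) joined. Voom, a limma fit on the recovered reads, also scales by median of ratios, so these settings are not separate checks. In A549 the number higher was 1 without ISP-I library 1, where CCND1 no longer passed (adjusted p = 0.0648), 3 without control library 2, and 4 without control library 3. The median member changed by -1.002 in H460, which is -0.85 relative to the median of all genes, and by -0.68 in A549. Since RNA came from whole cultures, fewer cells in a phase and less RNA per cell cannot be told apart from these values alone. The paper reports, by flow cytometry, more cells in G2/M phase after ISP-I in both lines. It also reports less cyclin B1 and cdc2 (CDK1) protein by western blotting. The phase of the cells that gave the RNA was not tested.

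The calls were read by phase, against 15.2% of all genes called lower in H460 and 3.51% in A549. Among the G1 members 3 of 10 were called lower in H460 and 1 of 9 tested in A549, with medians of -0.03 and 0.12. Among the G1/S and S phase members 7 of 12 and 5 of 12 were called lower, with medians of -1.09 and -0.75. The G2 and M phase members had 8 of 13 and 4 of 13 called lower, with medians of -1.54 and -0.82. A set of 9 members was called lower in both lines: CCND3, CCNA2, CDK2, E2F2, E2F8, CCNB2, CCNF, MYBL2 and FOXM1. Another 9 were called in H460 only (RBL1, RBL2, CCNE2, E2F1, SKP2, CCNB1, CDK1, CDC25B and PKMYT1), 1 in A549 only (CCNE1), and 16 in neither line, CCND2 among them, which was not tested in A549. Over all genes, 2047 were called lower in H460 and 481 in A549. The share of all genes called in both lines or in 1 line only was not counted, so nothing is read from this split. Exons of 17 members overlap a gene on the opposite strand, and the strand setting of the counting is not stated, so reads of such pairs cannot be told apart where they overlap. Of the 9 members called in both lines, E2F2, CCNB2 and MYBL2 have no such overlap. Whether a change differed between the lines was tested separately, and those results are given at the end.

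**Figure D1:**
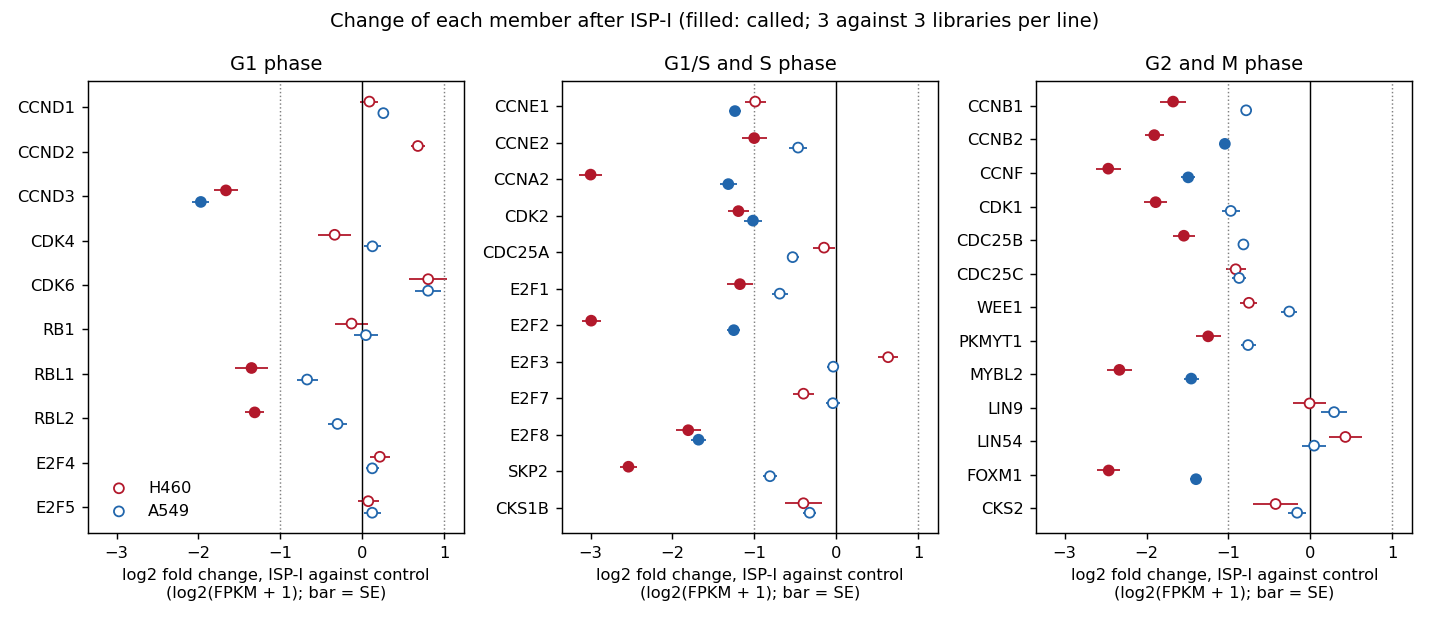
The horizontal axis gives the log2 fold change on log2(FPKM + 1), ISP-I against control, for each of the 35 members by phase; points are H460 (red) and A549 (blue), bars are the SE, and filled points are called. Most G1 members sit between -1 and 1, while CCND3 is called in both lines and the filled points of the S and M phase panels all lie to the left.

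The D cyclins carry growth signals to CDK4 and CDK6, and they did not move together. CCND3 (ENSG00000112576, chr6:41934934-42050357, build hg38) had 33.3, 37.6 and 41.9 FPKM in the H460 controls and 12.1, 9.12 and 12.5 after ISP-I (log2 fold change -1.66 ± 0.15 (SE), adjusted p = 1.93e-05). In A549, CCND3 had 32.1, 35.1 and 42.0 FPKM in controls and 8.35, 8.10 and 9.004 after ISP-I (log2 fold change -1.97 ± 0.10 (SE), adjusted p = 2.96e-06). The groups did not overlap in either line, and the mean FPKM of CCND3 was 3.35-fold lower in H460 and 4.29-fold lower in A549.

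CCND1, the D cyclin with the highest level in A549, had 32.0, 33.0 and 35.7 FPKM in H460 controls and 35.1, 37.6 and 34.4 after ISP-I (log2 fold change 0.09 ± 0.11 (SE), adjusted p = 0.499), so these groups overlapped. In A549 it had 130.2, 125 and 117 FPKM in controls and 154, 146 and 146 after ISP-I, a rise that passed the adjusted p but stayed under 2-fold (log2 fold change 0.26 ± 0.07 (SE), adjusted p = 0.0138). CCND2 was nearly silent in controls, with 0 to 4 reads in each H460 control and 59 to 111 reads in each treated H460 library (0.777, 0.443 and 0.666 FPKM after ISP-I). Its rise in H460 passed the adjusted p at 0.68 ± 0.08 (adjusted p = 0.000121) without passing the fold threshold on a scale that compresses such low values. With a pseudocount of 0.1 the same change was 2.66, and in voom, a limma fit on the recovered reads, it was 5.90, past the threshold in both. In A549, CCND2 had 0 to 1 reads per control library and 3 to 6 after ISP-I and was not tested. Exons of CCND2 overlap an unnamed gene on the same strand, CCND2-AS1 on the other and a further unnamed gene there, so the source of these few reads is uncertain.

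The makeup of the D cyclin transcripts, in FPKM over the listed lengths, was therefore different after ISP-I. CCND3 made up 51.0% to 54.0% of the summed FPKM of the 3 D cyclins in H460 controls and 19.3% to 26.2% after ISP-I, and the sum itself went from a mean of 71.2 to 47.6 FPKM. In A549, where CCND1 was the larger part from the start, the CCND3 share was 19.8% to 26.4% in controls and 5.15% to 5.80% after ISP-I, with a sum of 161 and 157 FPKM. The CCND1 share was thus 72.4% to 79.7% in treated H460 and 94.2% to 94.8% in treated A549.

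**Figure D2:**
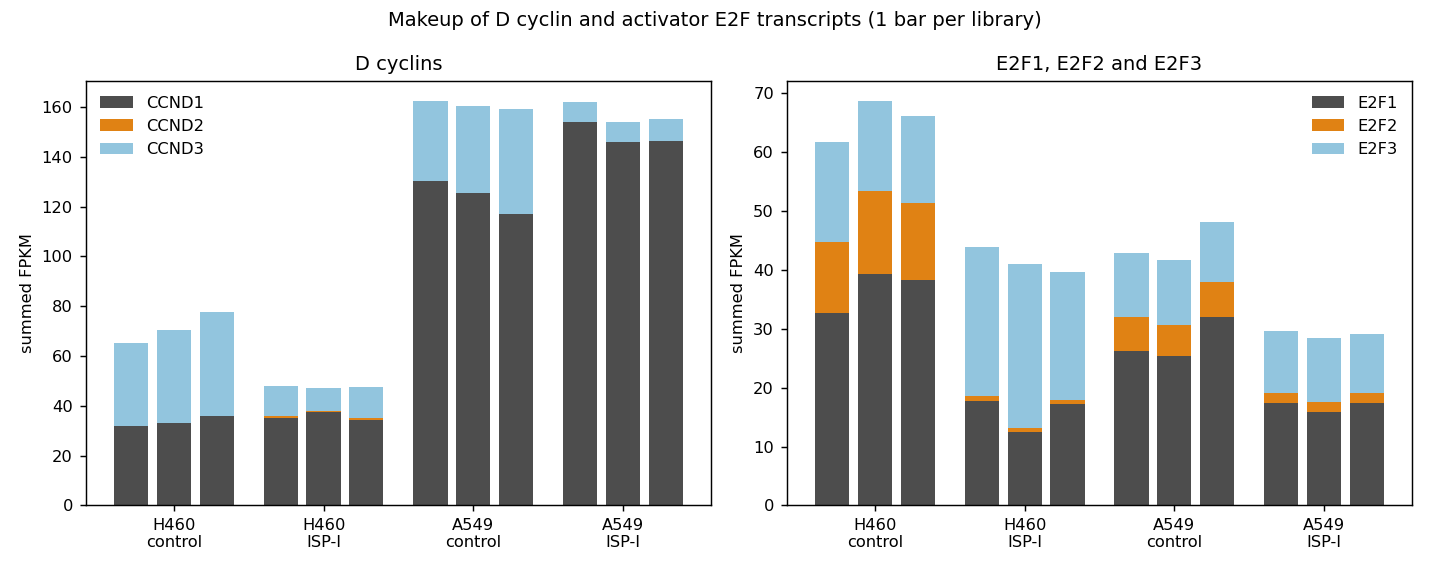
Stacked bars give the FPKM of CCND1, CCND2 and CCND3 (left) and of E2F1, E2F2 and E2F3 (right) in each of the 12 libraries, by group. The CCND3 part shrinks in both lines, and the E2F3 part is 54.7% to 67.8% of the activator E2F sum in treated H460 against 22.2% to 27.4% in its controls.

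CDK4 and CDK6, the partner kinases of the D cyclins, were not called. CDK4 had 71.8, 78.3 and 66.8 FPKM in H460 controls and 52.8, 44.6 and 78.1 after ISP-I (log2 fold change -0.34 ± 0.20 (SE), adjusted p = 0.162). The ISP-I library that stood apart carried the highest of the 3 treated values, within the range of the controls, and without it the difference was -0.56 with an adjusted p of 0.00207. In A549 the CDK4 values were 47.7 to 60.9 FPKM in controls and 54.9 to 59.6 after ISP-I (log2 fold change 0.12 ± 0.10 (SE), adjusted p = 0.322), and without control library 3 the change was 0.24 (adjusted p = 0.0016). CDK6 had 9.81, 6.74 and 8.60 FPKM in H460 controls and 16.5, 20.6 and 10.4 after ISP-I (log2 fold change 0.80 ± 0.23 (SE), adjusted p = 0.0139). It had 15.1, 15.8 and 9.66 FPKM in A549 controls and 24.3, 23.9 and 23.4 after ISP-I (log2 fold change 0.80 ± 0.16 (SE), adjusted p = 0.00294). CDK6 thus lay higher past the adjusted p in both lines without overlap of the groups, and its H460 change passed the fold threshold without ISP-I library 3 (1.06), under median-of-ratios scaling (1.07) and in voom (1.18). It did not pass the adjusted p without ISP-I library 1 (0.75, adjusted p = 0.0521) or control library 2 (0.67, adjusted p = 0.053). CDK6 has 12239 listed bases and thus belongs to the long genes that lay low in that library, while CDK4 has 3094. TSPAN31, which overlaps CDK4 on the opposite strand, had 3.54 FPKM in H460 controls and 12.2 after ISP-I.

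The pocket proteins RB1, RBL1 and RBL2 hold E2F factors in check, and the 3 genes did not share a response. RB1 had 5.52 to 8.67 FPKM in H460 controls and 4.73 to 7.92 after ISP-I (log2 fold change -0.13 ± 0.20 (SE), adjusted p = 0.575), and 6.18 to 9.65 against 7.97 to 8.95 in A549 (log2 fold change 0.04 ± 0.15 (SE), adjusted p = 0.816), with overlapping groups in both. The sign of the RB1 value in H460 turned under median-of-ratios scaling (0.12). RBL1 (p107) had 7.04, 6.51 and 7.27 FPKM in H460 controls and 2.15, 3.13 and 1.30 after ISP-I (log2 fold change -1.35 ± 0.20 (SE), adjusted p = 0.000349). In A549 the RBL1 means were 9.34 ± 1.86 and 5.41 ± 0.0566 FPKM (SD, n = 3), lower past the adjusted p but under 2-fold (log2 fold change -0.67 ± 0.13 (SE), adjusted p = 0.00241). RBL2 (p130), the pocket protein most associated with resting cells, had 6.70, 5.63 and 5.89 FPKM in H460 controls and 1.76, 2.12 and 1.66 after ISP-I (log2 fold change -1.31 ± 0.12 (SE), adjusted p = 2.02e-05). RBL2 had 6.45, 6.60 and 4.66 FPKM in A549 controls and 4.45, 4.69 and 4.51 after ISP-I (log2 fold change -0.30 ± 0.12 (SE), adjusted p = 0.0583), where the groups overlapped and the change without control library 3 was -0.44 (adjusted p = 0.000167); the adjusted p was 0.0367 under median-of-ratios scaling, 0.0278 in voom and 0.0479 in a single fit of all 12 libraries. AKTIP, which shares exon positions with RBL2 on the opposite strand, had 1.72 FPKM in H460 controls and 0.532 after ISP-I, and 5.03 and 5.17 in A549.

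E2F4 and E2F5, the E2F factors that pair with RBL1 and RBL2 in repressive complexes, had no change past the adjusted p in the fit as described. E2F4 had 60.0 ± 2.70 and 69.8 ± 5.17 FPKM in H460 (log2 fold change 0.21 ± 0.12 (SE), adjusted p = 0.137), and 34.3 ± 2.95 and 37.3 ± 0.601 in A549 (log2 fold change 0.12 ± 0.08 (SE), adjusted p = 0.201). The H460 groups of E2F4 did not overlap, and it passed the adjusted p under median-of-ratios scaling (0.50, adjusted p = 0.00671), in voom (0.52, adjusted p = 0.00341) and in a single fit of all 12 libraries (adjusted p = 0.0466). In A549 it passed without control library 3 (0.17, adjusted p = 0.0212). E2F5 stayed between 1.28 and 2.85 FPKM over all 12 libraries.

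The activator E2F factors split. E2F2 (ENSG00000007968, chr1:23506438-23531233) had 12.1, 14.1 and 13.001 FPKM in H460 controls and 0.901, 0.681 and 0.716 after ISP-I, a mean 17.1-fold lower (log2 fold change -2.99 ± 0.11 (SE), adjusted p = 3.6e-07). The A549 controls had 5.79, 5.19 and 6.08 FPKM and the treated A549 libraries 1.77, 1.80 and 1.85, 3.15-fold lower (log2 fold change -1.25 ± 0.08 (SE), adjusted p = 8.4e-06). Every treated library of either line lay below every control library. E2F1 had 32.8, 39.3 and 38.3 FPKM in H460 controls and 17.7, 12.5 and 17.3 after ISP-I (log2 fold change -1.18 ± 0.15 (SE), adjusted p = 0.000183), a call that did not hold under median-of-ratios scaling (-0.90) or in voom (-0.93). In A549 the E2F1 means were 27.9 ± 3.55 and 16.8 ± 0.881 FPKM (SD, n = 3), lower past the adjusted p and under 2-fold (log2 fold change -0.69 ± 0.10 (SE), adjusted p = 0.000426). E2F3 went the other way in H460, with 16.9, 15.2 and 14.9 FPKM in controls and 25.4, 27.8 and 21.7 after ISP-I (log2 fold change 0.63 ± 0.13 (SE), adjusted p = 0.00205), past the adjusted p but under 2-fold. In A549 the E2F3 values overlapped, at 10.1 to 11.1 and 9.91 to 10.8 FPKM (log2 fold change -0.04 ± 0.07 (SE), adjusted p = 0.678). The summed FPKM of the 3 activators was 61.7 to 68.7 in H460 controls and 39.7 to 43.97 after ISP-I, and 41.7 to 48.1 and 28.4 to 29.5 in A549. Within that sum the E2F3 share was 22.2% to 27.4% in H460 controls and 54.7% to 67.8% after ISP-I, and in A549 20.9% to 26.5% and 34.1% to 37.9%. In FPKM over the listed lengths, E2F3 was thus the largest part of the sum in treated H460, where E2F2 made up 1.66% to 2.05%.

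E2F1 and E2F2 are shown with the 200 bases around their starts because both promoters match the letters of an E2F element, the site through which E2F factors act on their own genes. Among the G1/S and S phase members with such a match, these had the most negative changes in H460. They were thus picked by their change, and no link between element and change can be read from them. The stretches run from 170 bases before to 29 bases after the start base (RefSeq, GRCh38.p14), 5′ to 3′ on the gene's strand, and capitals mark the E2F element (searched as TTTCGCGC, TTTGGCGC or TTTCCCGC) and the CCAAT box. E2F2 lies at chr1:23531204-23531403, minus strand, with its element starting 42 bases before the start, and E2F1 at chr20:33686356-33686555, minus strand, with its element 20 bases before the start.
E2F2: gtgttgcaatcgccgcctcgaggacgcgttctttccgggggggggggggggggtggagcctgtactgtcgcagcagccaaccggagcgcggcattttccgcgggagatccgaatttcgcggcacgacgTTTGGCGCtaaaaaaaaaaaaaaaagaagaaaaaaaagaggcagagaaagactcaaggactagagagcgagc
E2F1: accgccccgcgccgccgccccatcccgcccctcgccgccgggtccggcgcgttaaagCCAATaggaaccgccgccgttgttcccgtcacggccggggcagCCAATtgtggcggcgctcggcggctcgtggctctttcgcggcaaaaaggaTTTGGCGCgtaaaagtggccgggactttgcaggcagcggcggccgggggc

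Searched on both strands from 250 bases before to 50 after the start, the E2F element was in 2.74% of the 35116 promoter windows of the table. Of the 35 members 26 had a window there, and 1 was left out because its only start (RB1) lay over 5000 bases from the start the files give. Among the 25 members used, 6 held the E2F element (24.0%): CDC25A, CDK1, E2F1, E2F2, E2F3 and RBL1. E2F3 and CDC25A, which were not called in either line, held it as E2F2 did.

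E2F7 and E2F8 are atypical E2F factors that repress E2F target genes and are themselves E2F targets. E2F8 (ENSG00000129173, chr11:19224063-19241620) had 4.79, 4.24 and 5.03 FPKM in H460 controls and 0.352, 0.988 and 0.587 after ISP-I (log2 fold change -1.81 ± 0.15 (SE), adjusted p = 1.26e-05). It had 6.58, 5.71 and 5.26 FPKM in A549 controls and 1.04, 1.19 and 1.16 after ISP-I (log2 fold change -1.68 ± 0.09 (SE), adjusted p = 3.95e-06), so its groups did not overlap in either line. E2F7 in H460 was lower past the adjusted p but under 2-fold, with 9.38 ± 0.117 and 6.92 ± 1.09 FPKM (log2 fold change -0.40 ± 0.13 (SE), adjusted p = 0.022), and had 5.23 ± 0.282 and 5.06 ± 0.453 FPKM in A549 (log2 fold change -0.04 ± 0.08 (SE), adjusted p = 0.694). The H460 value of E2F7 did not pass the adjusted p under median-of-ratios scaling (-0.14, adjusted p = 0.349), in voom (-0.15, adjusted p = 0.373) or without control library 1, 2 or 3 (adjusted p = 0.0593, 0.06 and 0.0676).

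The E cyclins start S phase with CDK2. CCNE1 had 15.8, 15.5 and 16.9 FPKM in A549 controls and 6.07, 6.61 and 6.03 after ISP-I (log2 fold change -1.24 ± 0.07 (SE), adjusted p = 4.71e-06). In H460 it had 8.73, 11.5 and 9.98 and 4.73, 4.17 and 4.76 FPKM (log2 fold change -0.99 ± 0.13 (SE), adjusted p = 0.00017), just short of the fold threshold, which it passed without ISP-I library 1 (-1.01), ISP-I library 3 (-1.02) or control library 1 (-1.08). CCNE1 was therefore called in A549 and not in H460 on changes of -1.24 and -0.99 whose difference was 0.25 ± 0.14 (adjusted p = 0.15). CCNE2, at 2.28, 1.48 and 2.11 FPKM in H460 controls and 0.293, 0.778 and 0.368 after ISP-I (log2 fold change -1.002 ± 0.15 (SE), adjusted p = 0.000408), lay just past the threshold and lost the call under median-of-ratios scaling (-0.86) and without any of 4 libraries (ISP-I 1 or 3, control 1 or 3). In A549 the CCNE2 means were 1.73 ± 0.304 and 0.976 ± 0.178 FPKM (log2 fold change -0.47 ± 0.11 (SE), adjusted p = 0.00594).

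CDK2 had 7.97, 9.40 and 8.94 FPKM in H460 controls and 3.32, 2.81 and 3.69 after ISP-I (log2 fold change -1.20 ± 0.12 (SE), adjusted p = 4.66e-05). Its A549 values were 8.03, 7.21 and 10.001 FPKM in controls and 3.86, 3.39 and 3.61 after ISP-I (log2 fold change -1.02 ± 0.11 (SE), adjusted p = 0.000141). The groups were apart in both lines, though the call was lost in H460 under median-of-ratios scaling (-0.95) and in A549 without ISP-I library 2 (-0.98) or control library 3 (-0.90). CDC25A, the phosphatase that activates CDK2, had 22.1, 25.2 and 24.8 FPKM in H460 controls and 24.6, 19.0 and 21.3 after ISP-I, with overlap (log2 fold change -0.15 ± 0.13 (SE), adjusted p = 0.324) and a sign that turned under median-of-ratios scaling (0.13). In A549 the CDC25A values were 7.12 to 7.97 and 4.91 to 5.07 FPKM, lower past the adjusted p at under 2-fold (log2 fold change -0.53 ± 0.07 (SE), adjusted p = 0.000435).

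CCNA2, the cyclin of S phase and G2 and partner of both CDK2 and CDK1, was called lower in both lines. CCNA2 (ENSG00000145386, chr4:121816444-121823883) had 63.9, 52.7 and 57.6 FPKM in H460 controls and 6.62, 7.32 and 5.30 after ISP-I, a mean 9.06-fold lower (log2 fold change -3.000 ± 0.14 (SE), adjusted p = 8.2e-07). In A549 it had 53.1, 53.3 and 41.2 FPKM in controls and 18.7, 19.0 and 19.2 after ISP-I, 2.59-fold lower (log2 fold change -1.32 ± 0.10 (SE), adjusted p = 2.07e-05). EXOSC9, whose exons overlap CCNA2 on the opposite strand, had 9.46 FPKM in H460 controls and 11.2 after ISP-I, and 8.03 and 10.9 in A549.

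SKP2 and CKS1B together mark the CDK inhibitor p27 for destruction. SKP2 (ENSG00000145604, chr5:36151989-36196849) had 7.62, 7.03 and 7.62 FPKM in H460 controls and 0.486, 0.449 and 0.415 after ISP-I, 16.5-fold lower in the mean (log2 fold change -2.54 ± 0.10 (SE), adjusted p = 3.71e-07). In A549 it had 2.72, 3.22 and 2.47 FPKM in controls and 1.23, 1.14 and 1.12 after ISP-I (log2 fold change -0.81 ± 0.09 (SE), adjusted p = 0.000136), apart from controls but under 2-fold on this scale; with a pseudocount of 0.1 the change was -1.19 and in voom -1.28. NADK2, which overlaps SKP2 on the opposite strand, had 4.67 FPKM in H460 controls and 2.23 after ISP-I, and 4.46 and 5.28 in A549. CKS1B had 95.7, 89.6 and 90.3 FPKM in H460 controls and 59.8, 53.5 and 104 after ISP-I (log2 fold change -0.40 ± 0.23 (SE), adjusted p = 0.151), where the single high value came from ISP-I library 3 and the change without it was -0.69 (adjusted p = 0.000263). In A549 the CKS1B values were 65.5 to 80.2 and 56.7 to 57.7 FPKM (log2 fold change -0.32 ± 0.08 (SE), adjusted p = 0.00986, and 0.175 in a single fit of all 12 libraries). CKS1B has 7 annotated pseudogenes in GENCODE v44, so its reads may be split or shared with near copies.

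**Figure D3:**
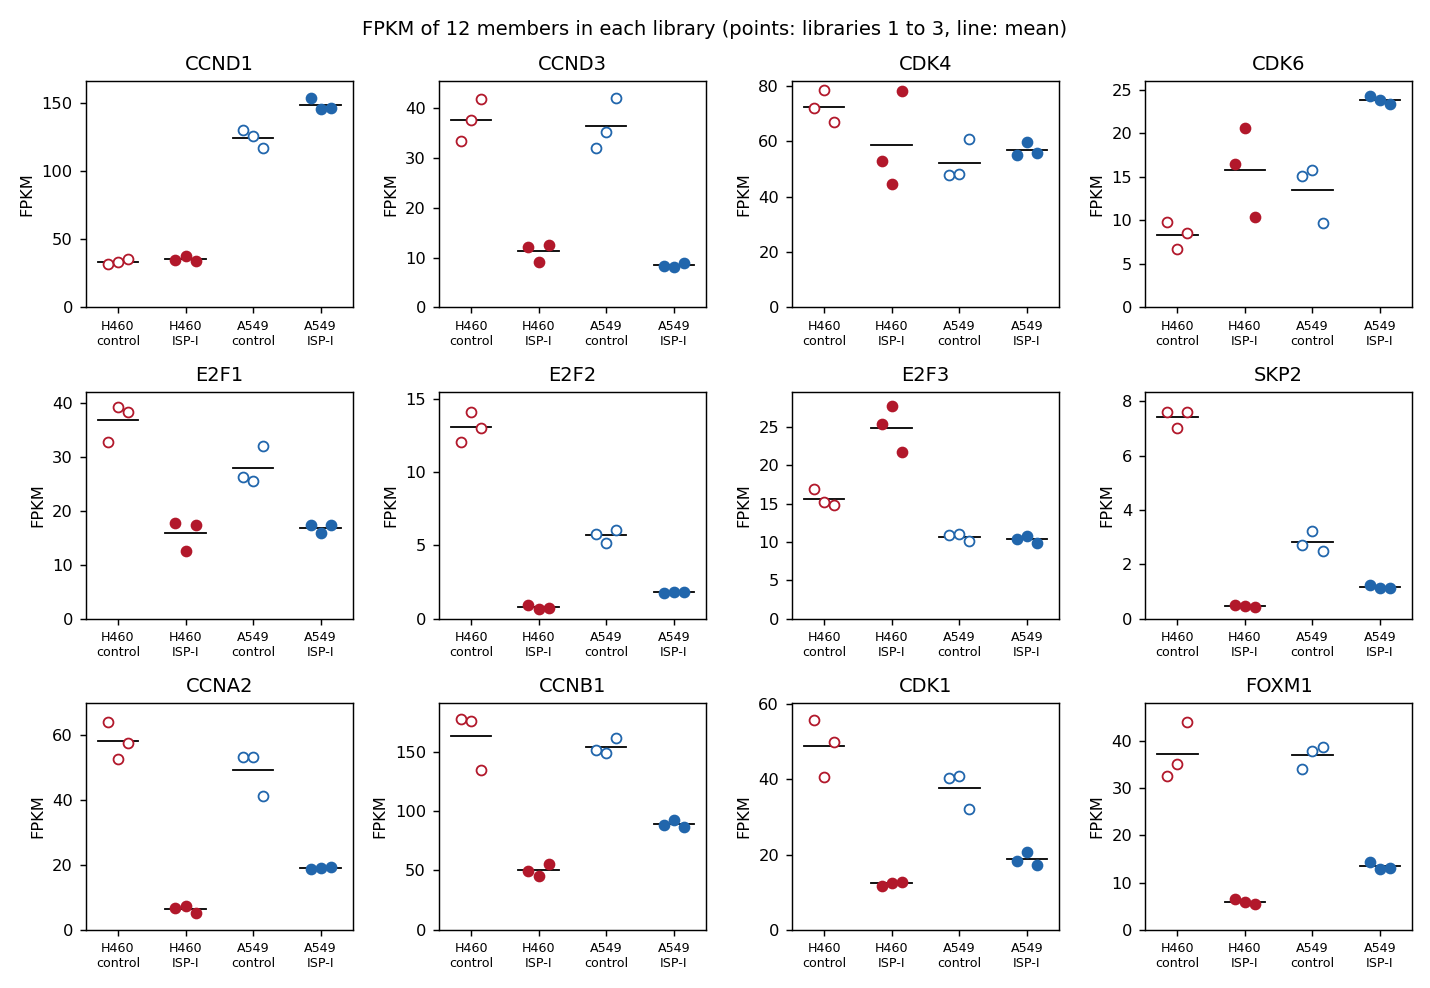
Each panel gives the FPKM of 1 member (vertical axis, linear from 0) in the 3 libraries of each group, with the mean as a line; open points are controls and filled points ISP-I. CCND3, E2F2, CCNA2 and FOXM1 are lower in every treated library of both lines, CDK6 is higher in every treated library, and 1 treated H460 library sits apart for CDK4.

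The B cyclins and CDK1 form the kinase that drives entry into mitosis. CCNB1 had 178, 176 and 135 FPKM in H460 controls and 49.5, 45.2 and 55.8 after ISP-I (log2 fold change -1.68 ± 0.15 (SE), adjusted p = 2.32e-05), and 154 ± 6.81 against 89.2 ± 3.24 FPKM in A549 (log2 fold change -0.78 ± 0.07 (SE), adjusted p = 3.59e-05). CCNB2 had 33.0, 31.6 and 31.1 FPKM in H460 controls and 8.15, 6.83 and 8.45 after ISP-I (log2 fold change -1.91 ± 0.12 (SE), adjusted p = 2.61e-06). In A549 CCNB2 had 48.8, 48.2 and 50.8 FPKM in controls and 24.8, 22.4 and 23.0 after ISP-I (log2 fold change -1.04 ± 0.07 (SE), adjusted p = 7.42e-06). Both B cyclins were thus lower in every treated library, with CCNB1 in A549 under the 2-fold threshold. CDK1 had 55.9, 40.6 and 49.9 FPKM in H460 controls and 11.7, 12.5 and 12.8 after ISP-I (log2 fold change -1.89 ± 0.14 (SE), adjusted p = 6.42e-06). In A549 it had 40.5, 40.8 and 32.1 FPKM in controls and 18.2, 20.8 and 17.3 after ISP-I (log2 fold change -0.97 ± 0.11 (SE), adjusted p = 0.000147), and this change passed the threshold with a pseudocount of 0.1 (-1.005), in voom (-1.02), without ISP-I library 2 (-1.04) and without control library 3 (-1.08).

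CCNF, an F-box cyclin that directs protein destruction in G2 and activates no CDK, was called lower in both lines. CCNF had 11.4, 13.4 and 12.02 FPKM in H460 controls and 1.98, 1.20 and 1.11 after ISP-I, 8.60-fold lower (log2 fold change -2.47 ± 0.15 (SE), adjusted p = 2.92e-06). It had 10.4, 10.4 and 11.8 FPKM in A549 controls and 3.29, 3.40 and 2.97 after ISP-I (log2 fold change -1.49 ± 0.08 (SE), adjusted p = 4.25e-06). CKS2, a small protein that binds CDK1, had 178, 170.4 and 151 FPKM in H460 controls and 101, 93.6 and 199 after ISP-I (log2 fold change -0.42 ± 0.27 (SE), adjusted p = 0.192). Its listed length is 616 bases, the shortest of the members, and its high treated value was again that of ISP-I library 3, without which the change was -0.77 (adjusted p = 0.000238). In A549 the CKS2 groups overlapped at 166 to 216 and 157 to 186 FPKM (log2 fold change -0.16 ± 0.11 (SE), adjusted p = 0.252).

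The promoters of CCNF, CCNB2, CDK1 and CKS2 are shown because each matches the letters of a CHR, with CCAAT boxes in the same stretch. Among the G2 and M phase members with such a match, these had the most negative changes in H460. They were thus picked by their change, and no link between element and change can be read from them. The CHR is the short element through which MuvB complexes act on genes of G2 and M phase, and CCAAT boxes can bind NF-Y. The CHR was searched as TTTGAA or TTCGAA on both strands. A match is one of letters only, and binding of MuvB or NF-Y was not measured. The stretches again cover 170 bases before to 29 after the start base (RefSeq, GRCh38.p14), with the CHR, CCAAT boxes and E2F element in capitals, and a match on the other strand is printed as its reverse complement. CCNF lies at chr16:2429277-2429476, plus strand, with the CHR starting 85 bases before the start, and CCNB2 at chr15:59104976-59105175, plus strand, with the CHR 29 bases before the start. CDK1 lies at chr10:60778161-60778360, plus strand, with the CHR 161 bases before and an E2F element 19 bases after the start, and CKS2 at chr9:89311025-89311224, plus strand, with the CHR 29 bases before the start on the other strand.
CCNF: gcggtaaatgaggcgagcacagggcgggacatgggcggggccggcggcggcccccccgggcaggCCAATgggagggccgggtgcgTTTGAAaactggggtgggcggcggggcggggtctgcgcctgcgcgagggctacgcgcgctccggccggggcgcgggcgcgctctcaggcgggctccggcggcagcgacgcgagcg
CCNB2: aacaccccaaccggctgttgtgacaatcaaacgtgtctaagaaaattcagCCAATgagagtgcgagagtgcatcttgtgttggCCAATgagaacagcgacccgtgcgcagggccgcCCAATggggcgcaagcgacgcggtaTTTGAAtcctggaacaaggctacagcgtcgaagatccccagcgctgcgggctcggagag
CDK1: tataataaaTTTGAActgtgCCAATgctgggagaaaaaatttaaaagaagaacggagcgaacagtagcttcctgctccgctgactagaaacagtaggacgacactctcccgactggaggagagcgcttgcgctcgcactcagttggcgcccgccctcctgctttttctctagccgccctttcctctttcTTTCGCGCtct
CKS2: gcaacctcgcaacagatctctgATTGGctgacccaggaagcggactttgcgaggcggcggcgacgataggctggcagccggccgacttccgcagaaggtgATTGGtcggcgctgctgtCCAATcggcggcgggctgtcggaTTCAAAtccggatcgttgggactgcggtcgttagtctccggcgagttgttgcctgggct

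In the window from 250 bases before to 50 after the start, a CHR was in 5 of the 10 G2 and M phase members with a window, in 2 of 9 of the G1/S and S phase members and in 1 of 6 of the G1 members, against 16.4% of all windows. A CCAAT box was in 5 of 10, 6 of 9 and 0 of 6, against 34.6% of all windows. CCNF, CCNB2 and CDK1 were called lower in H460, whereas CKS2 and LIN54, which also hold a CHR, were called in neither line.

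The switches of CDK1 are the CDC25 phosphatases, which activate it, and the kinases WEE1 and PKMYT1, which hold it inactive. CDC25B had 74.6, 87.1 and 93.2 FPKM in H460 controls and 31.1, 28.2 and 26.0 after ISP-I (log2 fold change -1.54 ± 0.13 (SE), adjusted p = 1.52e-05), and 119.8 ± 8.13 against 67.5 ± 1.33 FPKM in A549 (log2 fold change -0.82 ± 0.07 (SE), adjusted p = 3.64e-05). CDC25C had means of 5.81 ± 0.736 and 2.61 ± 0.172 FPKM in H460 (log2 fold change -0.91 ± 0.12 (SE), adjusted p = 0.000199), and 5.99 ± 0.287 and 2.83 ± 0.265 in A549 (log2 fold change -0.87 ± 0.08 (SE), adjusted p = 6.09e-05). The ratio of CDC25C means was 0.449 in H460 and 0.473 in A549, and with a pseudocount of 0.1 it passed the threshold in both lines (-1.12 and -1.06). FAM53C, which overlaps CDC25C on the opposite strand, had 12.3 FPKM in H460 controls and 36.7 after ISP-I. The CDC25A share of the summed FPKM of the 3 phosphatases was 20.2% to 21.5% in H460 controls and 38.0% to 42.8% after ISP-I, while in A549 it was 5.46% to 6.26% and 6.55% to 6.65%.

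The inhibitory kinases were lower as well. PKMYT1 had 25.1, 29.97 and 24.0 FPKM in H460 controls and 11.4, 8.47 and 11.9 after ISP-I (log2 fold change -1.25 ± 0.15 (SE), adjusted p = 0.000121), and 19.4 ± 1.63 against 11.04 ± 1.10 FPKM in A549 (log2 fold change -0.76 ± 0.09 (SE), adjusted p = 0.000215). The H460 call was lost under median-of-ratios scaling (-0.97), and PAQR4, whose exons overlap on the opposite strand, had 13.4 FPKM in H460 controls and 1.12 after ISP-I. WEE1 had 4.42 ± 0.131 and 2.22 ± 0.192 FPKM in H460 (log2 fold change -0.75 ± 0.10 (SE), adjusted p = 0.000266), and 5.36 ± 0.315 and 4.34 ± 0.541 in A549 (log2 fold change -0.26 ± 0.09 (SE), adjusted p = 0.0465), under 2-fold in both lines. The A549 value did not pass the adjusted p without ISP-I library 1 or 2 or control library 1 or 2 (adjusted p of 0.113 to 0.165).

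MYBL2 and FOXM1, the factors that join MuvB to switch on mitotic genes, fell in both lines, while the MuvB subunits LIN9 and LIN54 did not pass the adjusted p in either line. MYBL2 (ENSG00000101057, chr20:43667019-43716495) had 120.3, 142 and 163 FPKM in H460 controls and 31.3, 24.1 and 26.4 after ISP-I, 5.19-fold lower (log2 fold change -2.33 ± 0.16 (SE), adjusted p = 4.08e-06). MYBL2 in A549 had 86.2, 95.1 and 108 FPKM in controls and 34.7, 32.9 and 35.6 after ISP-I (log2 fold change -1.45 ± 0.09 (SE), adjusted p = 6.34e-06). FOXM1 (ENSG00000111206, chr12:2857680-2877174) had 32.6, 35.3 and 44.2 FPKM in H460 controls and 6.41, 5.94 and 5.40 after ISP-I, 6.31-fold lower (log2 fold change -2.46 ± 0.14 (SE), adjusted p = 1.81e-06). It had 34.2, 38.0 and 38.8 FPKM in A549 controls and 14.4, 12.9 and 13.03 after ISP-I, 2.75-fold lower (log2 fold change -1.40 ± 0.08 (SE), adjusted p = 3.95e-06). No treated library of either line reached the lowest control for these factors. ITFG2, opposite FOXM1, had 2.28 FPKM in H460 controls and 1.63 after ISP-I. LIN9 had 5.88 ± 1.21 and 5.90 ± 1.70 FPKM in H460 (log2 fold change -0.01 ± 0.20 (SE), adjusted p = 0.972) and 5.30 ± 1.48 and 6.56 ± 0.190 in A549 (log2 fold change 0.29 ± 0.16 (SE), adjusted p = 0.158, and 0.0428 without control library 2). LIN54 had 3.26 ± 0.516 and 4.85 ± 1.60 FPKM in H460 (log2 fold change 0.43 ± 0.20 (SE), adjusted p = 0.0818) and 3.99 ± 0.960 and 4.09 ± 0.381 in A549 (log2 fold change 0.05 ± 0.15 (SE), adjusted p = 0.804). LIN54 lay higher in H460 past the adjusted p without ISP-I library 3 (0.61, adjusted p = 0.0086), under median-of-ratios scaling (0.66, adjusted p = 0.0141) and in voom (0.84, adjusted p = 0.00819).

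Untreated H460 and A549 cells differed at 4 members, 3 lower and 1 higher in A549, against 5.64% and 8.78% of all genes called lower and higher. CCND1 was higher in A549 controls (log2 fold change 1.86 ± 0.09 (SE), adjusted p = 3.61e-07). CDC25A (log2 difference -1.53 ± 0.09), SKP2 (-1.15 ± 0.10) and E2F2 (-1.07 ± 0.10) were lower in A549 controls, with adjusted p of 1.53e-06, 2.08e-05 and 2.21e-05. E2F2 and SKP2 thus had the higher level in untreated H460, and after ISP-I they had mean levels of 0.766 and 0.450 FPKM in H460 against 1.80 and 1.16 in A549, a difference between treated cells that was not tested. FOXM1, by contrast, had a difference of 0.00 ± 0.12 between untreated lines (adjusted p = 0.977).

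The response itself differed between the lines at 5 members past the fold threshold, all with a larger fall in H460, against 10.1% of all genes with a more negative and 5.93% with a more positive change in H460. The difference of the changes, H460 minus A549, was -1.74 ± 0.12 for E2F2, -1.73 ± 0.12 for SKP2 and -1.68 ± 0.18 for CCNA2 (adjusted p = 4.29e-07, 2.98e-07 and 9.42e-06). FOXM1 differed by -1.07 ± 0.16 (adjusted p = 0.000131) and RBL2 by -1.01 ± 0.17 (adjusted p = 0.00028), but under median-of-ratios scaling these were -0.79 each and no longer past the threshold, nor was FOXM1 in voom (-0.87). Over all genes, the share of positive differences among those called went from 37.0% to 61.1% under that scaling. With so few members against that background, nothing is read about the members as a set. At any fold, 16 members had a more negative change in H460 past the adjusted p and 3 a more positive one. The share of all genes was not counted at any fold, and the median difference over all genes was -0.16. Nothing is read from these counts. Under 2-fold, the more negative ones included CCNF (-0.98), CDK1 (-0.92), CCNB1 (-0.89), MYBL2 (-0.88) and CCNB2 (-0.86). The more positive ones were CCND2, E2F3 and CDC25A, all under 2-fold, by 0.64 ± 0.09, 0.67 ± 0.13 and 0.38 ± 0.14 (adjusted p = 0.000106, 0.00124 and 0.0324). CCND3, CDK2 and E2F8, called lower in both lines, had differences of 0.31 ± 0.19, -0.18 ± 0.17 and -0.13 ± 0.18, with adjusted p of 0.182, 0.386 and 0.578.

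The other genes of the pathway were counted over lists written by hand. Of the CDK inhibitors of the INK4 and CIP/KIP families 5 of 7 were tested, and 2 were called higher and 1 lower in each line. CDKN1A (p21) had 7.89 ± 0.690 FPKM in H460 controls and rose to 63.1 ± 11.4 (log2 fold change 2.84 ± 0.15 (SE), adjusted p = 1.3e-06), and in A549 it rose from 50.3 ± 5.71 to 213 ± 8.38 (log2 fold change 2.07 ± 0.09 (SE), adjusted p = 1.32e-06). CDKN1C (p57) rose too but stayed low, at 1.75 FPKM in treated H460 (controls 0.180) and 1.503 in treated A549 (controls 0.195). CDKN2C (p18), an inhibitor of CDK4 and CDK6 that is also an E2F target, fell to 2.78 ± 0.433 FPKM in treated H460 against 21.5 ± 0.929 in controls (log2 fold change -2.57 ± 0.12 (SE), adjusted p = 8.2e-07) and to 3.98 ± 0.132 in treated A549 against 16.1 ± 0.549 (log2 fold change -1.78 ± 0.07 (SE), adjusted p = 8.03e-07). CDKN2A and CDKN2B were below the level needed for a test in both lines.

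The other genes of the pathway were counted against the same shares of all genes, 15.2% called lower and 10.5% higher in H460 and 3.51% and 4.20% in A549. Among E2F partners and other MuvB or DREAM subunits, 2 of 8 were called lower in H460 and 0 in A549, with medians of -0.06 and -0.09. TFDP1, the main partner of the activator E2F factors on DNA, fell from 60.9 ± 4.45 to 12.9 ± 1.08 FPKM in H460 (log2 fold change -2.15 ± 0.12 (SE), adjusted p = 1.58e-06) and had 44.4 ± 1.75 and 26.0 ± 0.149 FPKM in A549 (log2 fold change -0.75 ± 0.06 (SE), adjusted p = 2.61e-05). TFDP2 was the other gene called, at -1.002 in H460. Of the 3 subunits of the CDK-activating kinase, which phosphorylates the activation loop of CDKs, 1 was called higher in H460 and 0 in A549. This was CDK7, with 13.7 ± 1.35 and 64.5 ± 4.95 FPKM in H460 (log2 fold change 2.15 ± 0.12 (SE), adjusted p = 1.86e-06) and 16.4 ± 1.59 and 32.3 ± 1.79 in A549 (log2 fold change 0.94 ± 0.08 (SE), adjusted p = 4.27e-05). The ubiquitin ligase parts that act on cyclins had 2 of 10 called lower in H460, FBXO5 (-1.11) and CDC20 (-1.11), and 0 in A549, with medians of 0.12 and 0.11. With counts of 2 or fewer against that background, nothing is read about these lists as such.

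Of 18 replication genes that E2F drives in G1/S, 11 were called lower in H460 and 6 in A549, and 0 higher, with medians of -1.26 and -0.86. PCNA, the sliding clamp of the replication fork, fell to 26.6 ± 0.874 FPKM in treated H460 against 212 ± 28.5 in controls (log2 fold change -2.94 ± 0.14 (SE), adjusted p = 8.2e-07), and RRM2, a subunit of ribonucleotide reductase, changed by -2.18 in H460 and -1.20 in A549. CDC6, which loads the replicative helicase, was an exception in H460 with 27.8 and 28.0 FPKM (adjusted p = 0.952); it is named after its value was seen. The mitotic target genes are those that MuvB with MYBL2 and FOXM1 switches on and that DREAM holds silent. Of these, 12 of 17 tested were called lower in H460 and 9 of 18 in A549, and 0 higher, with medians of -1.69 and -0.98. KIF20A, a kinesin of the late mitotic spindle, fell from 53.5 ± 1.19 to 1.61 ± 0.122 FPKM in H460 (log2 fold change -4.39 ± 0.10 (SE), adjusted p = 6.54e-08) and to 7.44 ± 0.855 in treated A549 against 42.4 ± 2.39 (log2 fold change -2.36 ± 0.09 (SE), adjusted p = 7.69e-07). PLK1 (-2.71) and AURKB (-2.44), kinases of mitosis, had the next smallest p in H460, and CENPA (-1.003) and PTTG1 (-1.11) in A549, where the changes of MKI67 (-1.65) and TOP2A (-1.56) were larger. HMMR (-0.0007), TPX2 (-0.35), ECT2 (-0.46) and CENPF (-0.82) did not pass the adjusted p in H460, nor did HMMR and ECT2 in A549. These exceptions too are named after their values were seen.

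**Figure D4:**
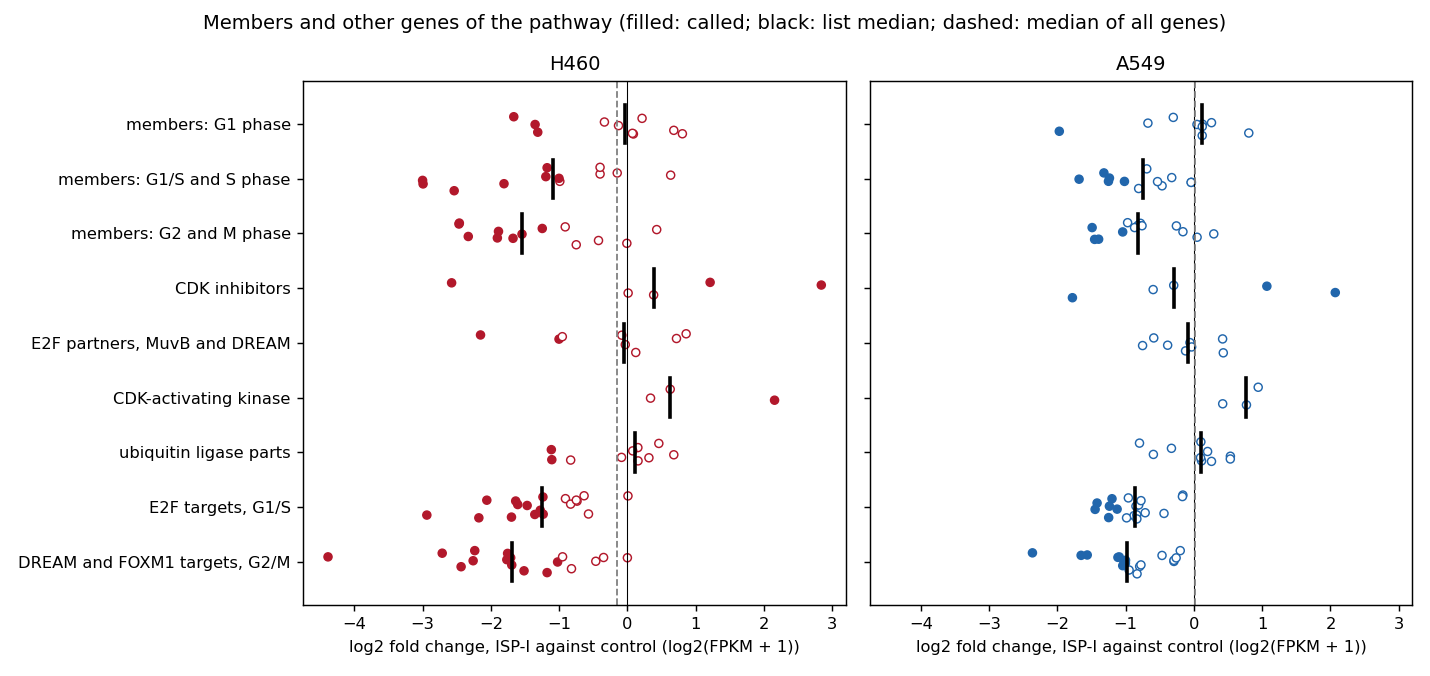
Each point is a gene, placed by its log2 fold change on log2(FPKM + 1), ISP-I against control, in H460 (left) and A549 (right); filled points are called, black ticks are list medians and the dashed line is the median of all genes. The S and M phase members and both target lists lie to the left in each line, while CDKN1A is the point furthest to the right among the CDK inhibitors, at 2.84 in H460 and 2.07 in A549.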

How the data were processed

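Total RNA of the 12 libraries was sequenced as paired-end reads. FastQC served as the read filter, HISAT2 aligned to hg38, HTSeq 0.9.1 gave gene counts, and the authors deposited FPKM for each gene in each library. The annotation version and the strand setting are not given in the sources used here. FPKM times listed length was a whole multiple of 1 step per library (tolerance 0.05 reads) in 100% of values, so whole reads were recovered, 14225849 to 17874422 per library. Fragments of an annotation cell took up 4 lines, which were dropped, and 1924 of 19973 genes had no reads. Columns name line, treatment and a number that runs over both treatments rather than the replicate of the labels, so libraries were numbered by their order within a group.

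Treated and control libraries (3 against 3) of a line were compared by limma 3.58.1 in R 4.3.3 on log2(FPKM + 1), allowing a trend of variance with level. Genes whose mean reached 0.1 FPKM entered, and Benjamini-Hochberg adjustment covered all of them. The difference between lines was the interaction in a fit of all 12 libraries, and untreated lines were compared over the 6 controls. The script was tested on simulated data. Alternatives were a pseudocount of 0.1, a minimum of 1 FPKM, no filter, median-of-ratios scaling, voom on recovered reads (at least 10 reads in 3 libraries), a single fit of all libraries and leaving out each library. Voom used median-of-ratios factors as well. The members and lists were chosen with earlier results of these data known, and a further list of pathway genes is not reported here. Values are given per library for members called in both lines, members whose change differs between the lines past the fold threshold and at least 1 member of each role. From each other list they are given for up to 3 genes with the smallest p. Promoter windows came from RefSeq (GRCh38.p14) and overlaps from GENCODE v44, whose positions lay within 5000 bases of the table's for all 35 members: exons of 17 overlap a gene on the opposite strand. Python 3.11.15, pandas 2.3.3 and matplotlib 3.10.9 were used.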

Additional observations from a re-analysis of the deposited data

Results flagged for a closer look

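The change after ISP-I differed between H460 and A549 past the fold threshold, by the interaction test of limma, at 5 of 35 members. Each had the larger fall in H460. By the same threshold, 10.1% of all genes had a more negative and 5.93% a more positive change in H460. Among the genes called, the share of positive differences was 37.0%, and 61.1% under median-of-ratios scaling. With so few members against that background, nothing is read about the members as a set. The change in H460 minus the change in A549 (log2) was -1.74 for E2F2, -1.73 for SKP2 and -1.68 for CCNA2. It was -1.07 for FOXM1 and -1.01 for RBL2, and -0.79 for each of these under median-of-ratios scaling, no longer past the fold threshold. Within groups of 3 no test of a single library as an outlier was run, and the H460 ISP-I library 3 stood apart by the measures given in the report.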

How the results depend on the processing

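No paired analysis was possible because the columns carry a running number and not the replicate numbers of the labels. The number of members called lower in H460 was 18, and 14 to 20 under the alternatives, and in A549 it was 10, and 10 to 13. The counts between untreated lines held under every alternative run. The number called higher in H460 was 0 in the main fit, 1 under median-of-ratios scaling (CDK6), 1 with a pseudocount of 0.1 (CCND2) and 2 in voom (both), and 0 to 1 when a library was left out (1 without ISP-I library 3). Members past the fold threshold with a more negative change in H460 numbered 5, 3 under median-of-ratios scaling, 7 with a pseudocount of 0.1, and 4 to 6 without a library. Those with a more positive change numbered 0, 1 with a pseudocount of 0.1 and 2 in voom (CCND2 and E2F3 there), and stayed at 0 without any single library.

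Among the member results recomputed, signs turned only for members without a call. In H460, RB1 became 0.12, CDC25A 0.13 and LIN9 0.24 under median-of-ratios scaling, and 0.15, 0.14 and 0.29 in voom. Without a library, RB1 ranged from -0.28 to 0.041 (without ISP-I library 3), E2F5 from -0.040 (without control library 2) to 0.17 and LIN9 from -0.19 to 0.17 in H460, and RB1 from -0.14 to 0.15 and LIN54 from -0.12 to 0.14 in A549. Scaling changes these by its construction, since it moves the H460 median. Voom was run with median-of-ratios factors too, so it shares that shift and is not a separate check. For the fits without a library the cause was not tested. The RBL2 difference between lines fell under the fold threshold in 5 of the fits without a library (-0.87 to -0.99, without A549 control 3, A549 ISP-I 2, H460 control 1, or H460 ISP-I 1 or 3). That of FOXM1 did so without H460 control library 3 (-0.94). Over all genes, voom called 5834 in H460 and 2593 in A549, against 3456 and 1056. Depth limits CCND2 in A549, and protein sequences were not analysed here.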
